A study of Mus musculus with 9 samples.

Results

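The genes described here are 10 transcripts of the integrated stress response and of amino acid transport, picked out of a table of 27179 genes by matching the Entrez identifier of each row to the mouse symbols Slc7a5, Slc3a2, Slc7a11, Slc7a2, Slc38a2, Atf4, Ddit3, Trib3, Chac1 and Asns. All 10 had a row. They were chosen by their role in these pathways and with their measured counts in knockout against wild type already known, which are the values the choice used. RNA came from sorted alveolar macrophages, the resident phagocytes of the air spaces, of C57BL/6 mice at an age of 1 week, in 4 libraries labelled Wild type and 5 labelled Suz12 cKO, a conditional knockout of a core subunit of Polycomb repressive complex 2. The sources used here do not give the Cre driver, the deleted exons, the sorting gate, whether a library is 1 mouse or a pool, or which sex the mice had. Libraries were split at the midpoint of their log2 levels of Xist. The high Xist class held 3 wild type and 2 knockout libraries and the low Xist class 1 and 3, so the classes were uneven between groups. The series text speaks of biological replicates, and if libraries of a group were not separate animals, the p-values measure only the spread between these libraries. Because the 10 genes were chosen with the comparison known, their values in it are a description and carry no p-value. In bulk RNA, fewer cells of a type and less RNA per cell cannot be told apart.

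The integrated stress response begins when a kinase that senses missing amino acids, misfolded protein, viral RNA or heme shortage phosphorylates the translation factor eIF2. General translation then slows, while the messenger of the transcription factor ATF4 is translated more, and ATF4 raises genes for amino acid uptake, amino acid synthesis and, under lasting stress, cell death. ATF4 with a C/EBP partner binds a composite site, the C/EBP-ATF response element. Macrophages use amino acid transporters for growth, for the glutathione that buffers oxidants and for arginine metabolism.

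The promoter stretches of 6 of these genes are shown because the composite site was present in some and not in others. The table of RefSeq promoters (GRCm38.p6, 250 bases before to 50 bases after each start site) held 8 of the 10 genes, and Slc7a5 and Slc7a2 were not in it. The letters TGATGNAA, the core of the composite site, were searched on both strands, and matches are in capitals. Each stretch is written 5′ to 3′ on the strand of its gene.
Slc7a11 (chr3:50443623-50443709, minus strand): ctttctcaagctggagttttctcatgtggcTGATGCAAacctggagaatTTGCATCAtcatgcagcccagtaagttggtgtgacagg
Asns (chr6:7693210-7693262, minus strand): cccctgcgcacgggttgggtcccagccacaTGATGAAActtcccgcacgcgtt
Chac1 (chr2:119351019-119351086, plus strand): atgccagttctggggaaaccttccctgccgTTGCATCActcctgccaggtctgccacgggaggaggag
Trib3 (chr2:152344029-152344056, minus strand): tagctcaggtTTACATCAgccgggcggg
Slc3a2 (chr19:8713898-8713987, minus strand): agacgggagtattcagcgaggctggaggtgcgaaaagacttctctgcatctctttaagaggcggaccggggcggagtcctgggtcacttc
Atf4 (chr15:80255094-80255183, plus strand): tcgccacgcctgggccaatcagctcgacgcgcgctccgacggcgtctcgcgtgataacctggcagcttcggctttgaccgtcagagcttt

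The core was found in 4 of the 8 promoters, and in 3.97% of 32851 promoters of the table. Slc7a11 held 2 matches in opposite orientation, at bases -66 to -59 and -47 to -40 from its start site, and 0.07% of all promoters held at least 2. The match of Asns lay at -23 to -16, that of Chac1 at -193 to -186 and that of Trib3 at 15 to 22, past the start site. Atf4, Ddit3, Slc3a2 and Slc38a2 held none within these 300 bases. For Slc3a2 and Slc7a11 the printed stretches lie inside the annotated spans, which end at 8723369 and 50499087. The result for these genes therefore applies to the start sites used. The cAMP response element core TGACGT, which shares the letters TGA with the composite core, was in none of the 8 promoters and in 7.51% of all. The antioxidant response element core TGACNNNGC, the site of the oxidant sensor NRF2, was in those of Asns and Slc38a2 and in 12.4% of all.

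Total counts ran from 13.8 to 25.3 M (M, 1e6) in wild type and from 18.6 to 45.6 M in knockout. Levels are counts per 1e6 of the scaled library (CPM). Suz12 stood at 66.6 ± 10.7 CPM (SD, n = 4) against 16 ± 4.11 CPM in the knockout libraries (SD, n = 5), with no overlap. Markers of alveolar macrophages were all present, and the 15 summed to 27320 to 65520 CPM in wild type and 20200 to 46620 CPM in knockout, of which Chil3 alone made up 5453 to 50840 CPM. Of the 15, Marco (0.54) and Lpl (0.60) were called higher and Car4 (-0.96), Krt79 (-0.53) and Fabp5 (-0.43) lower, as log2 fold changes. Marker sums of 5 of the 12 other cell types did not overlap between groups. The sum of 8 interstitial macrophage markers was 66.1 to 110 CPM in wild type and 348 to 1888 CPM in knockout, and that of 9 neutrophil markers 49.3 to 56.8 and 63.5 to 196 CPM, both highest in knockout library 3. Most of the first sum was Apoe. Of the neutrophil markers only Ly6g was at 0 throughout wild type. The monocyte sum was 119 to 129 CPM in wild type and 133 to 188.5 CPM in knockout, with Ace called higher (0.59). The mast cell and basophil sum was at most 0.0913 CPM in wild type and 0.293 to 1.18 CPM in knockout, with Fcer1a at 0 in every library. The airway epithelium sum was lower in knockout, at 37.1 to 78.1 against 102 to 133 CPM, most of it Tppp3. T and NK cell markers summed to 4.69 to 21.3 CPM over both groups. Lat was called higher (1.6), and Ncr1 was at 0 in every library. Lat alone held 21.1 of 21.3 CPM in knockout library 3 and 10.4 of 20.7 CPM in knockout library 5. From wild type to knockout, mean CPM went down for Cd3d (1.2 to 0.445), Cd3g (0.994 to 0.723) and Gzma (1.04 to 0.197). It went up for Cd3e (0.221 to 0.376) and Cd8a (0.909 to 1.17). These genes overlapped between groups and were too low to test. Fibroblast markers summed to 0 to 9.66 CPM. Short genes were lower in knockout, with a median log2 fold change of -0.42 in the shortest 10% (up to 970 bases) and 0.14 in the longest 10% (from 6045 bases). The part of these shifts in the results below was not tested, except where a value after correction for gene length or without a library is given.

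Among the 12840 genes tested with edgeR's quasi-likelihood test, 8.97% were called higher and 11% lower (adjusted p under 0.05, knockout minus wild type), and the libraries of the groups did not overlap for 20.8%. All 10 genes passed the filter on low counts. Slc7a5, Slc3a2 and Atf4 were called higher, which is 3 of 10, and none was called lower. The same 3 were the genes without overlap between groups. The median log2 fold change of the 10 genes was 0.42, against 0.04 for all tested genes. DESeq2 and limma called the same 3 higher and none lower. Since the genes were chosen with this comparison known, nothing is read from these shares.

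Atf4 encodes the transcription factor at the centre of the response (1725 bases of counted length, chromosome 15, 80255184 to 80257545). It stood at 120, 96.5, 141 and 91.9 CPM in wild type libraries 1 to 4 and at 179, 179, 175, 193 and 191 CPM in knockout libraries 1 to 5. Every knockout library was above every wild type library, and the wild type values were spread more widely. Mean CPM was 112 ± 22.7 (SD, n = 4) against 183 ± 8.05 (SD, n = 5), and the log2 fold change was 0.71 (SE 0.12). After correction for gene length it was 0.78. ATF4 protein is set mainly by translation, which messenger counts do not measure.

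Ddit3 and Trib3 are regulators that ATF4 is known to induce, and neither was called. Ddit3 encodes CHOP, a factor tied to cell death under lasting stress (871 bases, chromosome 10, 127290793 to 127296291). It stood at 9.13, 9.33, 8.42 and 7.2 CPM in wild type and 8.39, 7.9, 7.58, 7.2 and 7.79 CPM in knockout, and the groups overlapped. The log2 fold change of Ddit3 was -0.13 (SE 0.19), and 0.21 after correction for gene length. The annotated span of Ddit3 shares 77 bases with Mbd6 and 71 with Mars1 at its ends, and with the strand setting of the counting not given, reads there cannot be assigned to 1 gene.

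Trib3, a pseudokinase that restrains ATF4 and AKT signalling (2051 bases, chromosome 2, 152337425 to 152344060), stood at 6.39, 10.6, 6.12 and 4.33 CPM in wild type. In knockout it stood at 12.9, 11.7, 3.95, 15.85 and 11.7 CPM. Knockout library 3 was the lowest of all 9 libraries and the other 4 knockout libraries were above every wild type library. The log2 fold change was 0.70 (SE 0.35) with all libraries and 0.92 without knockout library 3, where Trib3 was called higher.

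Asns and Chac1 are effectors of the response, and 1 library decided the call of each. Asns, asparagine synthetase, makes asparagine from aspartate and glutamine (1927 bases, chromosome 6, 7675165 to 7693209). Its levels were 26, 23.8, 19.5 and 25.1 CPM in wild type and 27.4, 42.2, 11.6, 51.2 and 44.5 CPM in knockout. As for Trib3, knockout library 3 was the lowest of the 9 and the other 4 lay above wild type. The log2 fold change of Asns was 0.58 (SE 0.35), and 0.81 (SE 0.18) without knockout library 3, where it was called higher. Knockout library 3 was also highest in the interstitial macrophage, neutrophil and erythroid marker sums. The erythroid sum was 311 CPM there and 291.5 CPM in knockout library 2, where Asns stood at 42.2 and Trib3 at 11.7 CPM. The part of these sums in the low Asns and Trib3 of knockout library 3 was not tested.

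Chac1 encodes an enzyme that degrades glutathione (1569 bases, chromosome 2, 119351242 to 119354326) and was the least abundant of the 10. It gave 50, 46, 40 and 0 counts in wild type and 32, 26, 11, 7 and 25 counts in the more deeply sequenced knockout libraries. On the CPM scale this is 2.28, 1.84, 3.18 and 0 in wild type and 0.676, 0.701, 0.294, 0.363 and 0.522 in knockout. Wild type library 4 alone held no count, which allows up to 0.126 CPM at 3 counts (counting error only), while the other 3 wild type libraries were above every knockout library. The log2 fold change of Chac1 was -1.81 (SE 0.93) with all libraries and -2.23 (SE 0.58) without wild type library 4, where it was called lower. In the low Xist class the log2 fold change of Chac1 was 6.86, the opposite direction. The 1 wild type library of that class is library 4, so this value is set by its count of 0.

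**Figure D1:**
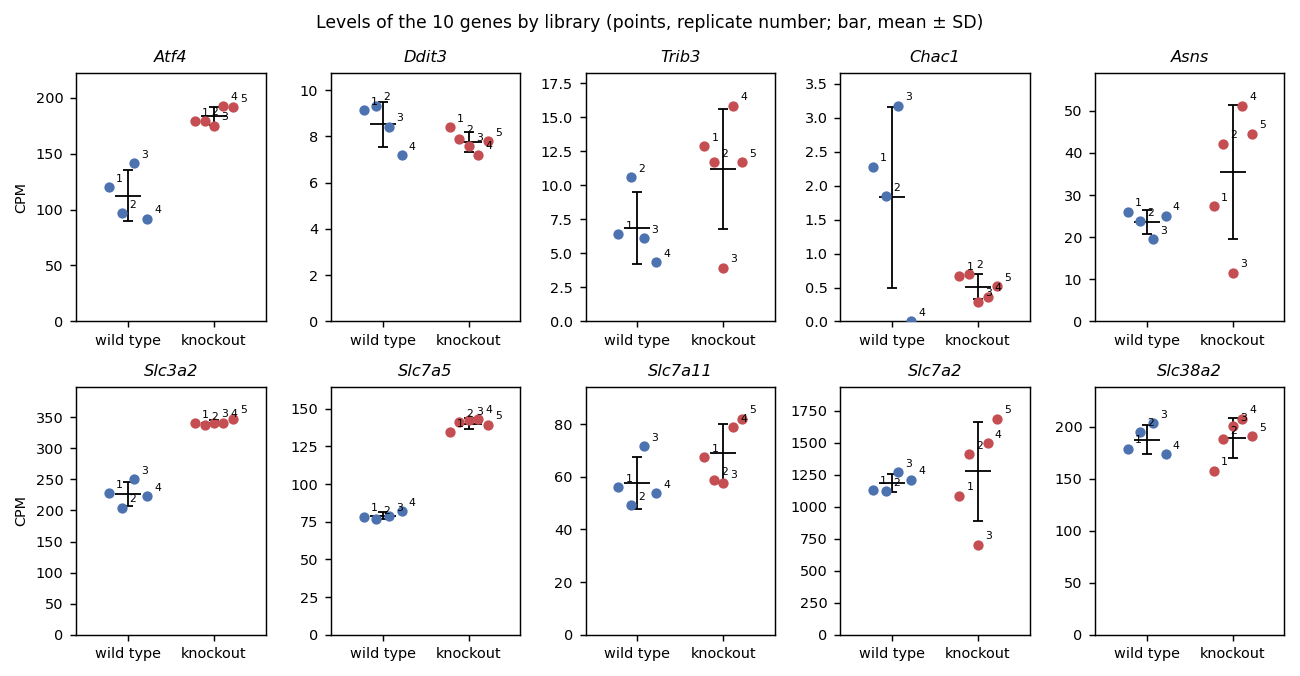
Level of each of the 10 genes in every library, in CPM on linear axes that start at 0 and differ between panels. Points are libraries with their replicate number, and bars are the mean ± SD of 4 wild type and 5 knockout libraries. Atf4, Slc3a2 and Slc7a5 show no overlap between groups, knockout library 3 is lowest for Trib3, Asns and Slc7a2, and wild type library 4 holds no Chac1.

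Slc3a2 and Slc7a5 together form a carrier of large neutral amino acids, and their knockout libraries varied little. Slc3a2 encodes 4F2hc (CD98), the heavy chain that takes several SLC7 light chains to the plasma membrane (2958 bases, chromosome 19, 8706882 to 8723369). It stood at 228, 204, 250 and 223 CPM in wild type and 340, 337, 341, 341 and 347 CPM in knockout. All knockout libraries lay above wild type, and their coefficient of variation was 1.11%, against 8.39% in wild type. Mean CPM was 226 ± 19 (SD, n = 4) against 341 ± 3.79 (SD, n = 5), and the log2 fold change was 0.59 (SE 0.08), or 0.52 after correction for gene length.

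Slc7a5 encodes LAT1, the light chain that exchanges glutamine for leucine and other large neutral amino acids (3513 bases, chromosome 8, 121881146 to 121907686). Its levels were 78.4, 76.6, 78.7 and 82 CPM in wild type and 134, 141, 143, 143 and 139 CPM in knockout. The groups were far apart relative to their spread. Mean CPM of Slc7a5 was 78.9 ± 2.27 (SD, n = 4) against 140.1 ± 3.6 (SD, n = 5), and the log2 fold change was 0.83 (SE 0.07), or 0.73 after correction for gene length. Knockout library 3, low for Asns, Trib3 and Slc7a2, was at 102% of the mean of the other knockout libraries for Slc7a5, at 100% for Slc3a2 and at 94.3% for Atf4.

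Slc7a11 encodes xCT, which imports cystine in exchange for glutamate and is shared by the ATF4 and NRF2 programmes (9227 bases, chromosome 3, 50364936 to 50499087). It stood at 56.1, 49.1, 71.7 and 53.65 CPM in wild type and 67.4, 58.8, 57.6, 78.7 and 82 CPM in knockout. Of the knockout libraries 2 were above the highest wild type library, and the groups overlapped. The log2 fold change of Slc7a11 was 0.26 (SE 0.14), and 0.13 after correction for gene length.

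Slc7a2 encodes CAT2, a carrier of arginine and lysine (7857 bases, chromosome 8, 40862341 to 40922070). It was the most abundant of the 10, at 1135, 1123, 1270 and 1212 CPM in wild type and 1087, 1411, 703, 1499 and 1688 CPM in knockout. The knockout libraries spread on both sides of wild type, with 3 above its highest and 2 below its lowest value. Their coefficient of variation was 30.4%, against 5.82% in wild type. The log2 fold change of Slc7a2 was 0.11 (SE 0.21), 0.27 (SE 0.11) without knockout library 3 and -0.05 after correction for gene length.

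Slc38a2 encodes SNAT2, a sodium-coupled carrier of small neutral amino acids that amino acid shortage is known to raise (4628 bases, chromosome 15, 96687392 to 96699728). It stood at 179, 196, 204 and 174 CPM in wild type and 158, 188, 201, 208 and 191 CPM in knockout. The ranges nearly coincided, with a log2 fold change of 0.01 (SE 0.09). After correction for gene length it was -0.12.

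Per length, in CPM per kilobase of counted length (RPKM), the 10 genes kept 1 order in both groups. From high to low by group mean it was Slc7a2, Slc3a2, Atf4, Slc38a2, Slc7a5, Asns, Ddit3, Slc7a11, Trib3 and Chac1. In wild type the level went from 151 ± 8.77 RPKM for Slc7a2 (SD, n = 4), above 95.1% of tested genes, to 1.16 ± 0.853 RPKM for Chac1 (SD, n = 4), above 17.5%. Between them, Slc3a2 was at 76.5 and Atf4 at 65.1 RPKM. Neighbours whose wild type ranges overlapped were Slc3a2 and Atf4, and Asns and Ddit3. In knockout the overlapping neighbours were Slc7a2 and Slc3a2, Slc38a2 and Slc7a5, Asns and Ddit3, Ddit3 and Slc7a11, and Slc7a11 and Trib3.

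The light chains that pair with 4F2hc were set against it within each library, as a percent of Slc3a2 RPKM. Slc7a5 stood at 29.5 ± 2.3% (SD, n = 4) against 34.6 ± 0.974% in the knockout libraries (SD, n = 5), without overlap. Slc7a11 stood at 8.13 ± 0.706% and 6.46 ± 0.997%, also without overlap, and lower in knockout. Slc7a7, the y+LAT1 chain that exports cationic amino acids, went from 27.4 ± 1.72% to 19.3 ± 1.91% without overlap, while its own level was nearly level at 52.4 and 55.8 CPM (log2 fold change 0.09, SE 0.10). In wild type Slc7a5 and Slc7a7 were close, with ranges of 26.45 to 31.6% and 25.05 to 29.2% that overlapped, and in knockout they were separate. Slc7a8 and Slc7a6 overlapped between groups, and Slc7a10 was near 0. The 6 light chains summed to 83.4 ± 7.73% of Slc3a2 (SD, n = 4) against 73.95 ± 2.48% in the knockout libraries (SD, n = 5). The groups overlapped for this sum, at 73.8 to 92.5% in wild type and 70.8 to 77.7% in knockout. These ratios rest on the same comparison and on Slc3a2 as the shared denominator, so they are not separate evidence, and messenger ratios do not give protein ratios.

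**Figure D2:**
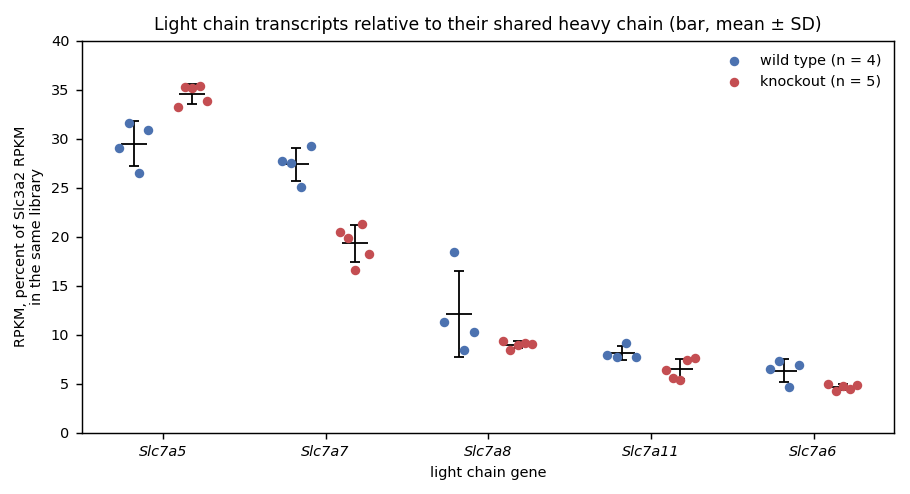
RPKM of 5 light chain genes as a percent of Slc3a2 RPKM in the same library, on a linear axis from 0. Points are libraries and bars the mean ± SD of 4 wild type and 5 knockout libraries. Slc7a5 is higher in knockout without overlap (29.5% and 34.6%), and Slc7a7 and Slc7a11 are lower without overlap.

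Deviations from the group mean showed which libraries moved the genes. In knockout library 3, Asns lay 1.43 and Trib3 1.35 below the knockout mean on the log2 CPM scale. Slc7a2 lay 0.80 below it. In the same library Slc38a2 lay 0.09 above and Slc3a2 at the mean. In wild type library 3, Atf4 was 0.35, Slc7a11 0.33 and Slc3a2 0.15 above the wild type mean. That library had the smallest total of the 9 and, within wild type, the highest sum of 15 immediate early genes, which sorting and handling are known to raise (7649 CPM, against 3002 to 5756 CPM in the other wild type libraries and 5964 to 7758 CPM in knockout).

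Across the 9 libraries, these deviations gave Pearson r values that are descriptions over libraries with 2 fitted means. The highest of 45 pairs was Slc7a2 with Asns (r = 0.93, Spearman rho = 0.80, n = 9), and r was 0.67 without knockout library 3. The lowest was Slc7a5 with Ddit3 (r = -0.90, rho = -0.93), at -0.91 without that library, where both genes lay near their group means. Slc7a5 deviated only from -0.06 to 0.06 on the log2 CPM scale, so this r rests on small differences. Slc7a5 with Slc3a2, the chains of 1 carrier, gave r = 0.21. Trib3 with Asns gave r = 0.78 and 0.07 without that library, so this value rests on it. Atf4 with Slc3a2 gave r = 0.82 and 0.83 without it, but both genes lay near their group means in that library, so leaving it out could change little. Without the 2 libraries farthest in Slc3a2, r was 0.67. Atf4 with Asns gave 0.07 and with Trib3 0.12. Among 7671 other genes with a mean log2 CPM from 4 upwards, the 5 most like the mean standardised deviation of the 10 genes over the 9 libraries were Ap2m1 (r = 0.97), Aqp9 (0.95), Ahcy (0.95), Ptcd2 (0.95) and Tor3a (0.94).

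**Figure D3:**
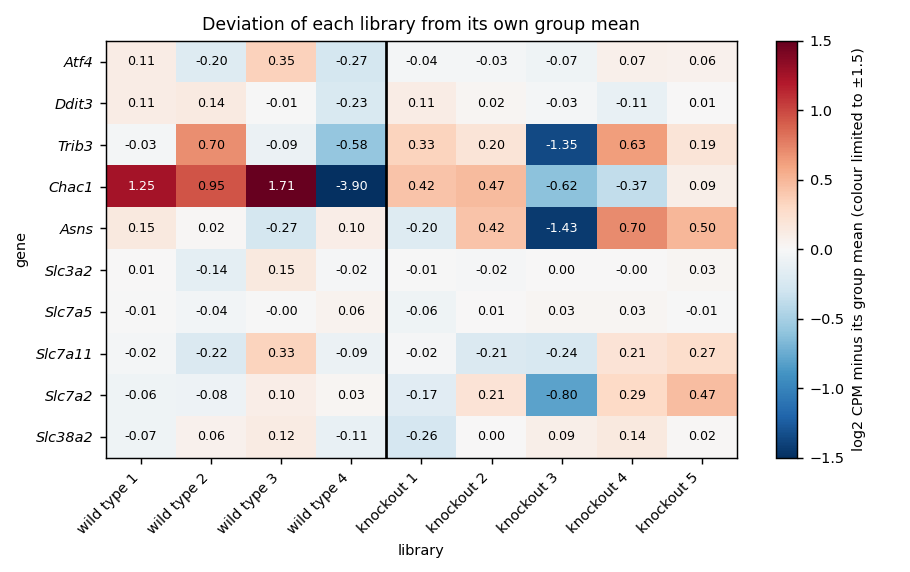
Log2 CPM of each gene in each library minus the mean of its own group, with the value printed in each cell and colours limited to ±1.5. Knockout library 3 is low for Trib3, Asns and Slc7a2, Slc3a2 and Slc7a5 stay within 0.15 of their means, and Chac1 in wild type library 4 is far below the others.

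The genes around these 10 were taken from 9 lists, and 137 of them outside the 10 were tested. Of these 26 were called higher and 8 lower, 24.8% together, against 19.9% of all tested genes. By list, in the order below, 31.25, 50, 13.3, 4.55, 5, 33.3, 47.1, 40 and 22.2% of the tested genes were called. These lists too were drawn up with earlier results of these data known, so their counts and adjusted p-values are not independent evidence. Without knockout library 4 or 5, 17 were higher. With libraries scaled by their totals alone the counts were 40 and 6, and that scaling moved the median of all genes from 0.04 to 0.15. In 4 of the 9 lists edgeR called no gene lower. At an unadjusted p under 0.05 it gave 1 lower among other ATF4 targets, 1 among transporters, 1 among tRNA synthetases and 0 among endoplasmic reticulum genes, while DESeq2 called 1 transporter lower and limma none in these 4 lists.

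The first list held genes of the eIF2 kinases, of eIF2 and of its exchange factor eIF2B, and also Ppp1r15a, Ppp1r15b, Gcn1 and Impact. It gave 4 higher and 1 lower of 16 tested (median log2 fold change 0.16). Ppp1r15a encodes GADD34, the phosphatase subunit that reverses eIF2 phosphorylation, and rose from 28.4 ± 7.06 to 47.9 ± 4.95 CPM (a log2 change of 0.76, SE 0.15, adjusted p = 0.00293, edgeR). Its annotated span shares 730 bases with Tulp2. Eif2ak3 encodes PERK, the kinase of the endoplasmic reticulum, and rose from 46.5 ± 5.1 to 69 ± 11.6 CPM (0.57, SE 0.13, adjusted p = 0.006). Eif2b4, an eIF2B subunit, rose from 9.63 ± 3.76 to 18.5 ± 1.6 CPM (0.93), and Eif2s2, picked once its value had been seen, by 0.32. Eif2s1 encodes the phosphorylated subunit of eIF2 and fell from 159 ± 25.9 to 103 ± 9.83 CPM (-0.63, SE 0.11, adjusted p = 0.0014). The other 3 kinases, Eif2ak1, Eif2ak2 and Eif2ak4, picked likewise, did not pass, at 0.27, 0.31 and 0.16.

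Partner factors of ATF4 gave 2 higher and 3 lower of 10 tested (median 0.01). Atf3, induced in the same response and by immediate early signals, rose from 84.8 ± 26.5 to 237 ± 20.2 CPM (1.49, SE 0.17), and it is also 1 of the 15 immediate early genes, of which 3 were higher and 1 lower (median 0.59, with Nr4a1 at 2.16, Junb at 0.78 and Dusp1 at -1.03). Their part in the rise of Atf3 was not tested. The promoter of Atf3 holds the composite core. Nfe2l2, which encodes NRF2, rose from 155 ± 19.1 to 188 ± 10 CPM (0.28, SE 0.09, adjusted p = 0.0412, edgeR), a call that ended under 10 of 19 alternatives, while its log2 fold change stayed between 0.25 and 0.40 over all 19. Cebpg fell from 153 ± 5.55 to 112 ± 6.78 CPM (-0.45, SE 0.08, adjusted p = 0.00107), and its protein is a dimer partner of ATF4 at the composite site. Batf fell by 0.49 and Cebpa by 0.32 on the log2 scale. Batf was not called after correction for gene length (adjusted p = 0.413, edgeR), and Cebpa was not called under 8 of 19 alternatives, over which its log2 fold change stayed between -0.37 and -0.21.

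Of 15 other known ATF4 targets tested, 2 were higher and none lower (13.3%, against 19.9% of all tested genes, median 0.06), and 5 more were too low to test. Sesn2, a leucine sensor that restrains mTORC1, rose from 19.4 ± 3.29 to 32.3 ± 2.91 CPM (0.73, SE 0.14, adjusted p = 0.00215, edgeR). Ddit4 encodes REDD1, another restraint on mTORC1. It was at 0, 0.36, 0 and 0.337 CPM in wild type and at 2.68, 2.53, 1.71, 2.02 and 3.34 CPM in knockout (adjusted p = 0.00815, edgeR). The serine synthesis genes Psat1 and Phgdh did not pass, at -0.21 (SE 0.09) and -0.08 (SE 0.08) on the log2 scale, and were picked once their values had been seen.

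Other amino acid transporters gave 1 higher and none lower of 22 tested (median 0.03), and 10 more were too low to test. The 1 called was the glycine transporter Slc6a9, at 0, 0, 0.397 and 0 CPM in wild type and 0.908, 0.997, 0.427, 2.07 and 2.11 CPM in knockout (adjusted p = 0.0358, edgeR). That call ended under 9 of 18 alternatives. Of the carriers that did not pass, picked once their values had been seen, the taurine carrier Slc6a6 was at 0.11 (SE 0.11) on the log2 scale, the glutamine carrier Slc1a5 at -0.23 (SE 0.12) and the arginine carrier Slc7a1 at 0.05 (SE 0.19).

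Cytosolic tRNA synthetases, which charge tRNAs and include ATF4 targets, gave 1 higher and none lower of 20 tested (median 0.09). Lars, the leucyl enzyme, rose from 81.5 ± 7.56 to 104 ± 10.9 CPM (0.36, SE 0.10, adjusted p = 0.0218, edgeR). The call of Lars ended under 5 of 19 alternatives, with a log2 fold change of 0.25 after correction for gene length, 0.21 in the low Xist class and 0.32 to 0.34 without knockout library 2, 4 or 5. In each of these 5 none of the 20 was called higher, and with library totals alone 6 were. The composite core was in the promoters of 5 of 13 synthetases, and none of those 5 was called. Across all 9 lists, 17 of 120 genes with a promoter held the core. Of these 13 were tested, with 1 called higher and none lower, and of the 93 tested without it 20 were higher and 7 lower. Over all tested genes 19.9% were called. The 13 include the 5 synthetases, from a list with 1 of 20 called, and nothing is read from these counts.

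Endoplasmic reticulum chaperones and sensors, which other branches of the unfolded protein response raise, gave 7 higher and none lower of 21 tested (median 0.16). Hspa5 encodes BiP, and rose from 827 ± 128 to 1274 ± 201 CPM (0.62, SE 0.13, adjusted p = 0.00355, edgeR). Its span shares 1921 bases with Rabepk. Hsp90b1, which encodes GRP94, rose by 0.46 and the sensor Atf6 by 0.53 on the log2 scale. In the low Xist class, with 1 wild type and 3 knockout libraries, none of the 21 was called, at log2 fold changes of 0.75 for Hspa5, 0.63 for Hsp90b1 and 0.45 for Atf6. After correction for gene length 4 were called.

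NRF2 targets gave 7 higher and 1 lower of 17 tested (median 0.23). Hmox1, heme oxygenase 1, rose most among the 3 named, from 118.5 ± 11.7 to 394 ± 157 CPM (1.73, SE 0.31, adjusted p = 0.00485, edgeR). Its knockout values were 459, 303, 182, 430 and 595 CPM, lowest in library 3. Txnrd1, thioredoxin reductase, rose by 0.61 and Srxn1, sulfiredoxin, by 0.77 on the log2 scale. In the low Xist class, with 1 wild type library, the log2 fold changes were 1.45 for Hmox1, 0.51 for Txnrd1 and 0.86 for Srxn1. The span of Txnrd1 shares 1305 bases with Eid3, and that of Prdx1 424 bases with AV051173. Prdx1, a peroxiredoxin, fell from 1051 ± 150 to 651 ± 71.6 CPM (-0.69, SE 0.11).

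Glutathione genes gave 2 higher and 2 lower of 10 tested (median 0.20). Gclm, the modifier subunit of the first enzyme of glutathione synthesis, rose from 35.8 ± 3.2 to 53.6 ± 8.85 CPM (0.58, SE 0.13, adjusted p = 0.00599, edgeR). Ggt5, which cleaves extracellular glutathione conjugates, rose from 3.95 ± 1.42 to 9.09 ± 3.6 CPM, was not called without wild type library 1 and was highest in knockout library 3 (15 CPM). The glutathione peroxidases Gpx1 and Gpx4 fell by 0.84 and 0.71 on the log2 scale, and by 0.56 and 0.50 after correction for gene length.

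Genes of arginine use gave 1 higher and 1 lower of 9 tested (median 0.28). Odc1, ornithine decarboxylase, rose from 59.6 ± 12.7 to 81.7 ± 7.37 CPM (0.46, SE 0.13, adjusted p = 0.0273, edgeR), a call that ended under 8 of 19 alternatives. Azin1, an antizyme inhibitor that stabilises ornithine decarboxylase, fell from 178 ± 8.87 to 127 ± 24.9 CPM (-0.48, SE 0.13). Arg1, picked once its values had been seen, was at 10.5, 9.13, 65.2 and 14.35 CPM in wild type and 9.97, 100, 49.2, 69 and 92.3 CPM in knockout and did not pass (log2 fold change 1.40, SE 0.86).

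**Figure D4:**
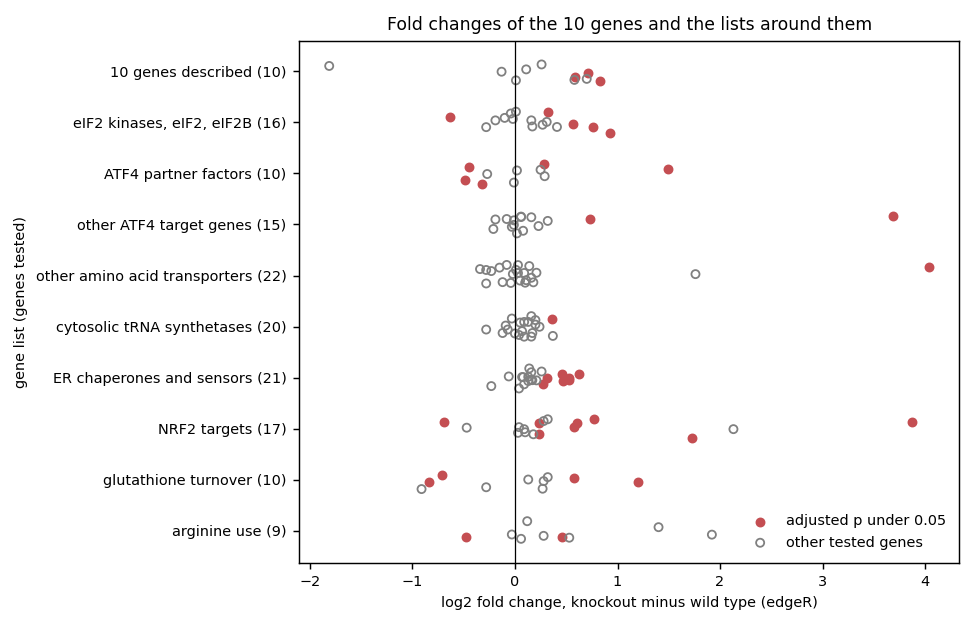
Log2 fold change, knockout minus wild type by edgeR, of each tested gene in the 10 genes described and in the 9 lists around them. Filled points had an adjusted p under 0.05 over all tested genes, open points did not, and the vertical scatter within a list has no meaning. Transporters and tRNA synthetases lie mostly near 0, with 1 called gene in each list, and 7 of 21 chaperone and sensor genes are called higher.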

How the data were processed

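Polyadenylated RNA libraries (TruSeq) of 4 wild type and 5 knockout samples were sequenced as single reads of 85 bases, per the labels' protocols. Deposited values are integer counts for each Entrez gene beside its length, made by the authors with featureCounts on mm10 per the submitters' processing notes. The sources used here do not give the aligner, versions, annotation release or strand setting. All 9 single tables equalled the joint table. Symbols, coordinates (GRCm38.p6, the assembly of mm10) and promoters came from RefSeq tables, which named 25275 of 27179 identifiers.

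Counts were tested in R 4.3.3 with edgeR 4.0.16 (TMM, filterByExpr by group, robust quasi-likelihood fit, Benjamini-Hochberg adjustment over 12840 genes, threshold 0.05), and the script was tested on simulated data. Each SE was derived from the test statistic. CPM used TMM-scaled totals, and log2 CPM a prior count of 2. Alternatives were DESeq2 1.42.0, limma 3.58.1 (voom), RLE scaling, totals only, no filter, a filter of 1 CPM in 4 libraries, a robust loess of library deviations on log2 gene length (span 0.5) as an offset, a replicate block, Xist class, and each library left out.

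The 10 genes and all lists were chosen with earlier results of these data known. Named list genes were up to 3 called genes per direction with the smallest adjusted p. The antioxidant motif was added after the data were seen.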

Additional observations from a re-analysis of the deposited data

Results flagged for a closer look

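In 4 of 74 groups of libraries examined (each named gene in wild type and in knockout), the gap between 1 library and the nearest other was large relative to the range of its group (Dixon's criterion at 95%). Chance flags about 1 group in 20. Ppp1r15a was at 38.9 CPM in wild type library 3, against 23.9 to 26.1 CPM in the other 3. Slc6a9 was at 0.397 CPM in wild type library 3 and at 0 in the other 3. Cebpg was at 124 CPM in knockout library 4, against 108 to 111 CPM in the other 4. Odc1 was at 68.8 CPM in knockout library 3, against 82.7 to 87.1 CPM in the other 4.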

How the results depend on the processing

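Slc7a5, Slc3a2 and Atf4 were called higher under all 19 alternatives. The number of the 10 genes called higher was 3 in each, except without knockout library 3, where Trib3 and Asns joined to make 5 (range 3 to 5 with each library left out). The number called lower was 0, except 1 (Chac1) without wild type library 4 (range 0 to 1). Of all tested genes, 1152 were higher and 1409 lower. With totals only 1960 were higher and 1013 lower, which moved the share of calls that were higher from 45% to 65.9%. With the replicate block 749 were higher, and in the low Xist class (1 wild type library, assumed to vary like the 3 knockout libraries) 473 were higher and 523 lower. With each library left out, 772 to 1434 were higher and 1074 to 1521 lower. Of the 137 list genes, 26 were higher, against 40 with totals only, 6 in the low Xist class and 17 to 30 with each library left out. Those lower numbered 8, against 3 in the low Xist class and 7 to 10 with each library left out. Suz12 ranged from -2.19 to -1.95 on the log2 scale and passed under all 19. The causes of these differences were not tested.

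Deviations from group means of libraries with the same replicate number correlated at 0.04, 0.06, -0.09 and 0.15. Such values cannot tell whether same-numbered libraries shared a litter or a processing day, and the labels state no pairing. The replicate block left 18 list genes higher and 7 lower, and the call of Slc7a5, Slc3a2 and Atf4 in place. Of the 4 wild type libraries 1 had its highest correlation with its own number. Under the stricter filter 9 of the 10 genes were tested, and Chac1 was not. Depth limits Chac1, Ddit4 and Slc6a9. The fold changes of Ddit4 and Slc6a9 rest on few wild type counts. That of Chac1 rests on 7 to 32 counts in the knockout libraries and on the 0 of wild type library 4.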
